A study of Mus musculus with 2 samples.

Results

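Myelin is the stack of membrane that oligodendrocytes wrap around axons, and it insulates them so that impulses travel fast. The genes described here encode 9 parts of that sheath or of the cells that build it, *Mbp*, *Mog*, *Mag*, *Mobp*, *Cnp*, *Mal*, *Opalin*, *Ermn* and *Ugt8a*. They were taken as a fixed list and not ranked by their values, but the list was chosen with earlier results of these data known. All 9 of 9 were among the 17592 genes of the deposited table. In the oligodendrocyte lineage, dividing precursors stop cycling, pass through a short newly formed stage and then become mature, myelinating cells, and the sheath genes are known to be switched on along that path. Compaction of the sheath needs myelin basic protein, the product of *Mbp*, while adhesion to the axon and the outer face of the sheath involve the surface proteins MAG and MOG.

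Single cells of the dentate gyrus, the part of the hippocampus where granule neurons are born in adult mice, were profiled from C57BL/6 mice. The old library is of mice aged 16 months and the young library of mice aged 3 months, and each age has a single library. All cells had been dissociated with papain and sorted alive by exclusion of propidium iodide, no genotype or treatment other than age is named, and the number of animals behind each library is not given in the sources used here. The old library held 1430 cells and 7451506 unique molecular identifiers (UMIs), with a median of 3856 UMIs per cell, and the young library 2463 cells and 16217559 UMIs, with a median of 6663.

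The brain cells of the libraries were not separate. The young library also held 1401 of the old library's 1430 barcodes (98.0%). Of the mature oligodendrocyte-like cells, 78 in the old and 79 in the young library, 78 carried the same barcode and fell in the same class in both. Values of the young library are therefore given as the main ones, values of the old library stand beside them, and agreement between the libraries is no replication. With 1 library per age there is no replicate check and no p-value. The 95% intervals are exact and cover counting error only, since UMIs of 1 library share its cells.

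Cells were clustered without the 9 genes, so that they did not help to form the classes, and each cluster was called after a class from marker lists that hold none of them. The cluster called mature oligodendrocyte-like passed 14 of 14 markers of its list, with *Ptgds*, *Cryab*, *Apod* and *Car2* among its leading genes. Among its cells the 10 astrocyte markers summed to 3.88 UMIs per 10,000 in the old and 2.79 in the young library, the 10 microglia markers to 3.21 and 1.07, and the 10 precursor markers to 2.95 and 2.74, against 203 and 213, 367 and 375, and 87.4 and 87.1 in the classes they mark. The other classes with 10 or more young cells were oligodendrocyte precursor-like (43 old and 48 young cells), microglia-like (367 and 374), astrocyte-like (307 and 300), endothelial-like (129 and 129), pericyte-like (67 and 68), neuroblast-like, which includes immature granule neurons (56 and 58), smooth muscle-like (15 and 14) and perivascular macrophage-like (11 and 10). A B cell-like class had 5 cells in each library, too few for the comparisons between classes. In addition, 63 cells of each library stayed unnamed, and 289 old and 1315 young cells formed clusters with under 1% of UMIs from mitochondrial genes, called low-mitochondrial here.

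A level is the UMIs of a gene per 10,000 UMIs of all cells of a class. Because each molecule gives 1 UMI at its 3' end, whatever its length, levels were set side by side without dividing by transcript length, though genes can still differ in how well their 3' ends are captured. Near copies are few, since at most 3.57% (*Ermn*) of the 31-base words in the last 500 bases of a member's transcripts also occurred in another gene. *Mobp* overlaps a processed transcript on the same strand, and how reads of that overlap were assigned is not given in the sources used here.

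In mature oligodendrocyte-like cells of the young library the 9 genes together made up 2.61% of all UMIs, 18593 of 712205. *Mal*, which encodes a membrane protein of the sheath that takes part in sorting lipids and proteins to myelin, was highest of the 9, at 67.3 UMIs per 10,000 (65.4 to 69.2), and ranked 10 among all genes in these cells. *Cnp*, for a phosphodiesterase that keeps cytoplasmic channels open in the sheath, was at 43.7 (42.2 to 45.2). *Mbp* was at 42.3 (40.8 to 43.9), an interval that overlaps that of *Cnp*.

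Next came *Mobp*, whose small basic protein lies in compact myelin, at 24.0 (22.9 to 25.2), and *Mag*, for the adhesion molecule that faces the axon, at 23.2 (22.1 to 24.3). These intervals overlap as well, so the order of *Mobp* and *Mag* is open to counting error. *Ermn*, encoding ermin, a cytoskeletal protein of mature oligodendrocytes, was at 20.2 (19.1 to 21.2). *Mog*, for the glycoprotein on the outermost layer of the sheath, was at 16.2 (15.3 to 17.2), and *Opalin*, for a transmembrane glycoprotein of oligodendrocytes, at 14.9 (14.0 to 15.8), again with overlapping intervals. The lowest was *Ugt8a*, for the enzyme that makes galactosylceramide, a main lipid of myelin, at 9.31 (8.61 to 10.0).

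Promoter letters were read for 8 of the 9 genes from RefSeq promoter windows on GRCm38.p6, of which the 250 bases before the start were searched on both strands. The letters were ACAAAG and ACAATG, the core read by SOX proteins such as SOX10, CTGGCAC for MYRF, and CATATG and CAGCTG, E-boxes of OLIG proteins. SOX letters were in windows of 5 of the 8 genes, *Mobp*, *Cnp*, *Mag*, *Opalin* and *Ermn*, or in 6 of 10 windows, since *Mag* has several, against 25.2% of 32851 windows of all genes. MYRF letters were in 3 of the 10 windows, of *Cnp* and *Mag*, against 4.19%, and the E-boxes in none, against 16.1%. Of the 3 windows of *Mag*, windows 1 and 2 overlap and hold the same SOX match and the same MYRF match, each counted in both. Window 3 of *Mag*, the only one of them that is followed by bases of a known transcript of the gene, held no match. A match is a description of letters and not a binding site.

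The windows of 4 genes are shown because they span what was found, *Mobp* with 6 SOX matches in a stretch rich in T, *Cnp* with 1 SOX and 1 MYRF match, *Opalin* with 1 SOX match and *Mal* with none. They run 5' to 3' on the strand of the gene, with SOX and MYRF letters in capitals, and for *Mobp* and *Cnp* the last 35 bases are left off because the GENCODE gene model starts before the RefSeq start. They lie at chr9:120149492-120149706 (plus strand, *Mobp*), chr11:100574689-100574903 (plus strand, *Cnp*), chr19:41077114-41077363 (minus strand, *Opalin*) and chr2:127656696-127656945 (minus strand, *Mal*).
Mobp: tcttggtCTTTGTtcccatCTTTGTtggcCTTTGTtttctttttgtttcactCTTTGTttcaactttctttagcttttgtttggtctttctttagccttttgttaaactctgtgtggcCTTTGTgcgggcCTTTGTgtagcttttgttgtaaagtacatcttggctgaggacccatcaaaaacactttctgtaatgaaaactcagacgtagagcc
Cnp: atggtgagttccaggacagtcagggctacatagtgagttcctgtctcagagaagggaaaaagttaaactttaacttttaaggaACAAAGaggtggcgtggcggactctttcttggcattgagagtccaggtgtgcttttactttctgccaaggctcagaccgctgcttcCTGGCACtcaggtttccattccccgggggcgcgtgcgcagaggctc
Opalin: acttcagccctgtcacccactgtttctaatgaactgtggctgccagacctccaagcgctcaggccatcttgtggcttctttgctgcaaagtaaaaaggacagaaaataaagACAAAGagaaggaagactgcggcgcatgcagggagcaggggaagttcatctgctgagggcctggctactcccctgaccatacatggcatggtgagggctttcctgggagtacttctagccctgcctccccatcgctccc
Mal: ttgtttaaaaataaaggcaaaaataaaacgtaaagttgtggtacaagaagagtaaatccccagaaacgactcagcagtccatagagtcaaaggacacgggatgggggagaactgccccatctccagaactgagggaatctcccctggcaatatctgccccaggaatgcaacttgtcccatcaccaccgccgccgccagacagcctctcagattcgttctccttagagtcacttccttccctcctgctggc

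The genes were found in nearly every mature cell. Shares of cells with a UMI ran from 94.9% for *Mog* to 100% for *Mbp* and *Mobp*, and 74 of 79 cells had a UMI of all 9 genes. The other 5 cells were shallow, with 836 to 1701 UMIs against a median of 9609. After thinning to 1000 UMIs the 77 of 79 cells that had as many, the share was 100% for *Mal*, 94.8% for both *Cnp* and *Mbp*, and 63.6% for *Ugt8a*. Outside this class a cell with 5 or more of the 9 genes was rare. In the young library 3 of 374 microglia-like and 2 of 300 astrocyte-like cells had that many, and none in the other 7 named classes, among the unnamed or among the low-mitochondrial cells did.

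**Figure D1:**
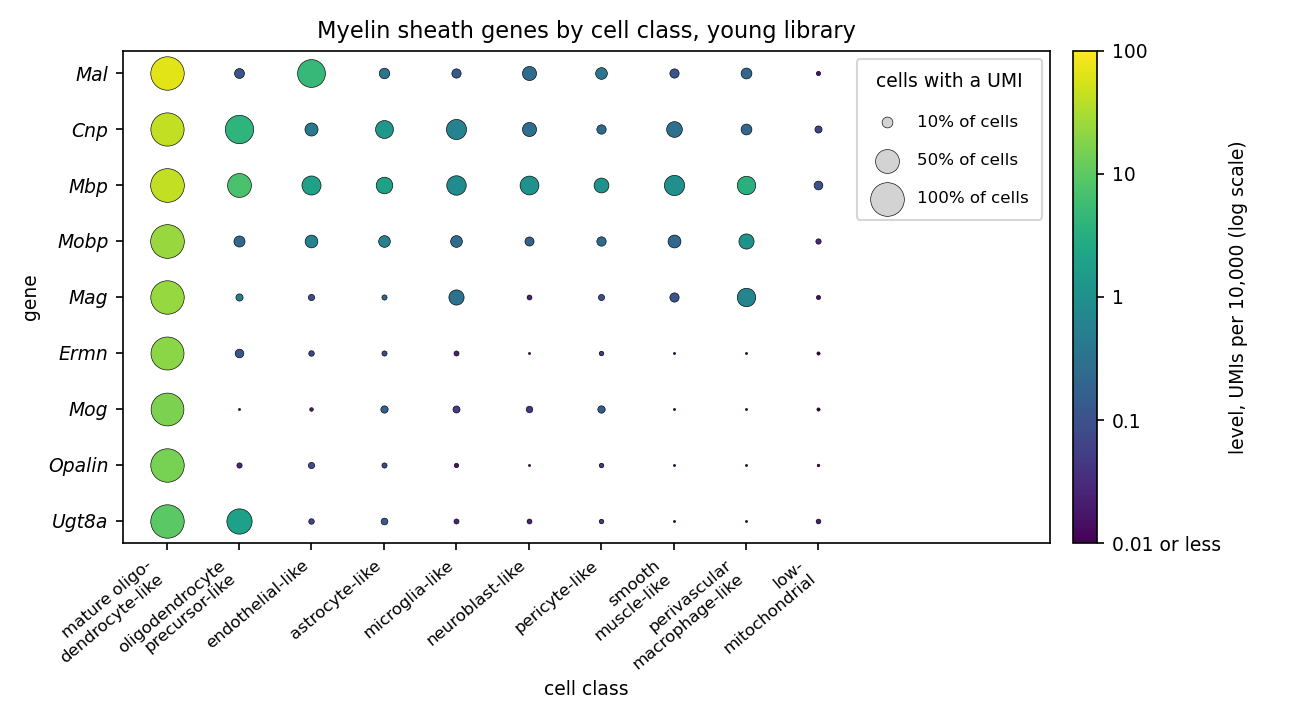
Level (colour, UMIs per 10,000, log scale) and percent of cells with a UMI (dot area) of the 9 genes (rows) in the named classes with 10 or more cells and in the low-mitochondrial cells of the young library (columns). Every gene is brightest in mature oligodendrocyte-like cells, with a lower level of Mal in endothelial-like cells (4.73) and of Mbp, Cnp and Ugt8a in oligodendrocyte precursor-like cells (7.06, 4.03 and 1.81).

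All 9 genes were at least 4-fold higher in mature oligodendrocyte-like cells than in the next highest of the other 8 named classes, with 0.1 added to both levels. In the old library 9 of 9 were, where 1.20% of 9559 tested genes were, and in the young library 9 of 9, where 1.34% of 9308 genes were. In the young library the fold was widest for *Ermn*, at 94.9, the second highest of the 9308 genes, followed by *Opalin* at 79.9, *Mog* at 58.0 and *Mag* at 30.9. *Mobp* followed at 20.3, *Mal* at 14.0 and *Cnp* at 10.6. *Mbp*, at 5.93, and *Ugt8a*, at 4.91, had the narrowest folds, and for both the next highest class was oligodendrocyte precursor-like. The genes with the highest levels in mature cells were thus not those with the widest folds. Over the 9 classes, Pearson's r between 2 members of the list, on log2 levels, ran from 0.67 for *Mal* and *Ugt8a* to 0.99 for *Opalin* and *Ermn*, with a median of 0.88 over the 36 pairs. The classes share 1 library and the mature cells set most of each value.

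Against oligodendrocyte precursor-like cells all 9 genes were also at least 4-fold higher, in the old library, where 4.08% of 7051 tested genes were, and in the young library, where 4.31% of 6960 were. The size of the difference divided the list. *Mog* had no UMI in the 48 precursor-like cells. Counting 3 UMIs over the class as the floor, its level was 190-fold higher in mature cells, and the exact lower limit of the ratio was 154.5. *Opalin* had 1 UMI there, *Mal* 4, *Ermn* 4, *Mobp* 8 and *Mag* 16. By contrast *Cnp* had 142 UMIs, *Mbp* 249 and *Ugt8a* 64, and plain ratios of mature to precursor-like cells were 10.8 (9.17 to 12.9) for *Cnp*, 6.00 (5.27 to 6.85) for *Mbp* and 5.13 (3.96 to 6.74) for *Ugt8a*.

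A UMI of *Cnp* was present in 70.8% of them (55.9 to 83.0), against 35.3% of microglia-like cells (30.5 to 40.4), a class that should lack it, at median depths of 7999 and 7911 UMIs. For *Ugt8a* the shares were 56.2% (41.2 to 70.5) and 1.87% (0.756 to 3.82). Neither pair of intervals overlaps. *Mbp* was found in 50.0% of precursor-like cells (35.2 to 64.8), an interval that overlaps that of the 33.2% of microglia-like cells (28.4 to 38.2), and 199 of its 249 UMIs lay in 2 cells.

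Those 2 cells belong to a set of 4 that stood apart for genes of newly formed oligodendrocytes. Summed over 9 such markers, among them *Enpp6*, *Bcas1* and *Tcf7l2*, the 4 cells had 160 to 227 UMIs per 10,000, while the highest of all other young cells had 43.4 and the mature cells a median of 11.4. The limit of 100 was set after these values were seen, so the set is a description and nothing rests on it as a class. Cell 1, with 8928 UMIs, had 102 UMIs of *Mbp*, 32 of *Cnp*, 9 of *Mag* and 11 of *Ugt8a*. Cell 2, with 7448 UMIs, had 97, 45, 7 and 14 of the same genes. In the young library neither had a single UMI of *Mog*, *Mobp*, *Mal*, *Opalin* or *Ermn*, nor of *Pdgfra*, the receptor that marks precursors.

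In these 2 cells *Mbp*, at 114 and 130 UMIs per 10,000, was above the highest of the 79 mature cells, 74.9, whereas *Mal*, the highest gene of mature cells, was at 0. The genes of the list were therefore not all present together in them. Cells 3 and 4 were shallow, with 1128 and 1101 UMIs. *Enpp6* and *Gpr17* were at 0 in both, and most of the summed marker level of cell 4 came from *Sirt2*, with 16 UMIs against 2 of *Bcas1*. Cell 3, also precursor-like, had 4 UMIs of *Mbp*, 1 of *Cnp* and 2 of *Ugt8a*, and cell 4, in the unnamed cluster, had 27 of *Mbp*, 18 of *Cnp*, 3 of *Mobp* and 1 of *Ugt8a*. A doublet caller, Scrublet, marked cells 1 and 2 in both libraries and cell 4 in the old library only. *Mog*, *Mal* and *Opalin* were at 0 in all 4, but some mature cells as shallow as cells 3 and 4 also lacked some of these genes. Whether a doublet produced any of these profiles was not tested.

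Without the 3 precursor-like cells of this set, *Mbp* was at 1.37 UMIs per 10,000 (1.00 to 1.83) in the remaining 45 cells, 46.7% of which had a UMI of it (31.7 to 62.1), and its plain ratio of mature to precursor-like cells widened to 30.8 (23.1 to 42.2). *Cnp* was then at 1.91 (1.47 to 2.44), in 68.9% of cells, with a ratio of 22.9 (17.9 to 29.8). *Ugt8a* was at 1.10 (0.777 to 1.52), in 53.3% of cells, with a ratio of 8.43 (6.05 to 12.1). The level of *Mbp* in the class thus rested mostly on 2 cells. Without the 3 cells it was below the level of *Mbp* in perivascular macrophage-like (3.49), astrocyte-like (1.98) and endothelial-like cells (1.92). It was above that in neuroblast-like (1.10), pericyte-like (1.09), smooth muscle-like (0.97) and microglia-like cells (0.81). *Mag* had no UMI in those 45 cells, nor had *Mog*.

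**Figure D2:**
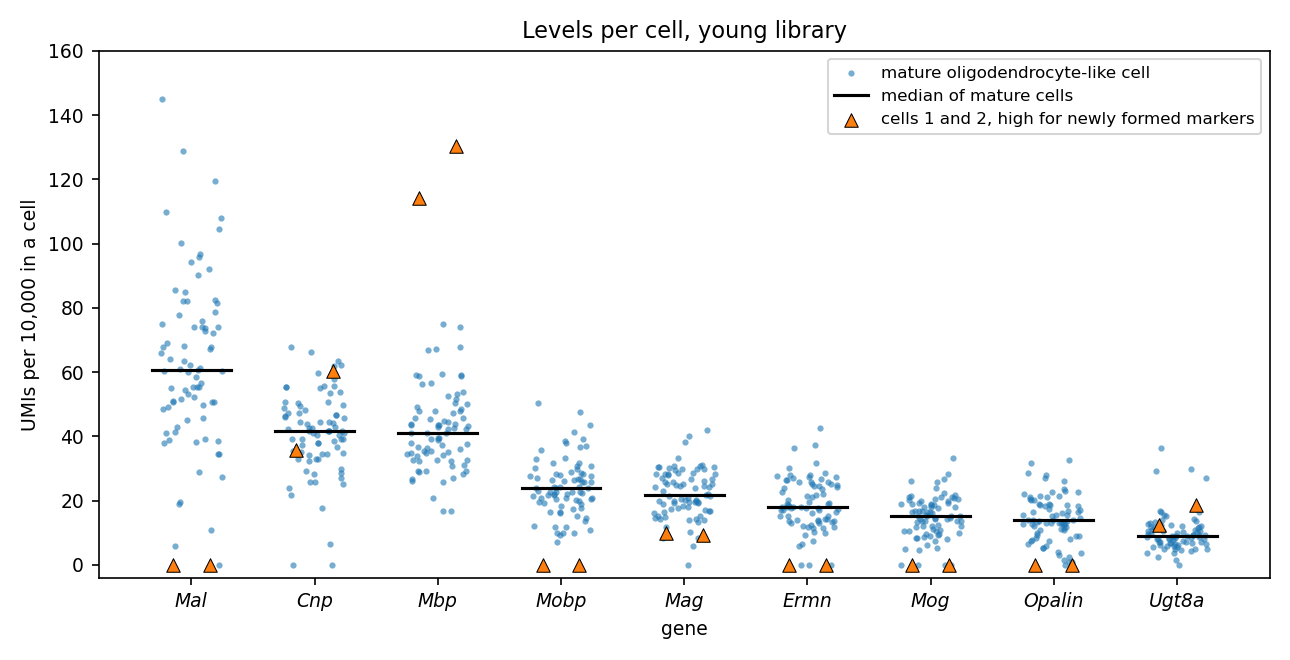
Level per cell (UMIs per 10,000, y axis) of the 9 genes (x axis, in the order of their class level) in the 79 mature oligodendrocyte-like cells of the young library (points, with their median as a line) and in cells 1 and 2 (triangles), which were high for markers of newly formed oligodendrocytes. In cells 1 and 2 Mbp is above every mature cell, at 114 and 130, and 5 genes are at 0.

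The mature cells differed among themselves by gene. *Mal* had 60.5 UMIs per 10,000 in the median cell, with a lowest value of 0 and a highest of 145. *Opalin* had a median of 14.0 and a range of 0 to 32.7, and *Mbp* a median of 41.2 and a range of 16.8 to 74.9. Once the part that counting alone gives was taken off, the coefficient of variation over cells was 45% for *Opalin* and 36.4% for *Mal*, the most variable, then 27.7% for both *Mog* and *Mobp*, 24.2% for *Mbp*, 22.9% for *Ermn*, 18.1% for *Mag* and 17.1% for *Cnp*. *Ugt8a* had the lowest value, 13%, but in the old library it was at 17.2%, close to *Cnp* at 17.7%.

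Across the 79 mature cells the measured levels of the genes went together only loosely. Pearson's r over the 36 pairs, on log2 of the level plus 1, had a median of 0.15 and ran from -0.17 for *Opalin* and *Ugt8a* to 0.70 for *Cnp* and *Ermn*. The points share 1 library and differ in depth, and r was not corrected for counting error, which weakens it. In the median cell *Ugt8a* had 8 UMIs, *Opalin* 13 and *Mog* 14, so a low r does not show that genes vary apart. Over the 74 cells with at least 2000 UMIs, a limit set after the data were seen, the median was 0.12, the pair *Cnp* and *Ermn* was at 0.10 and *Mog* and *Mag* led at 0.50. The genes of both surface proteins thus had the highest r of the list in these cells, and 5 of 36 pairs reached 0.3.

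*Opalin* and *Mog* also differed in the other oligodendrocyte genes they went with in those cells. *Opalin* had an r of 0.54 in the old and 0.55 in the young library with *Ptgds*, the prostaglandin D2 synthase gene, and 0.46 and 0.45 with *Il33*, which encodes a cytokine of the interleukin-1 family. With *Apod*, the gene of apolipoprotein D, *Opalin* had an r of -0.26 in the young library. For *Mog* the values were 0.52 in the old and 0.52 in the young library with *Apod*, and 0.52 and 0.56 with *Gsn*, the gelsolin gene. Of the 99 pairs of a member and a gene of that list with at least 200 UMIs, 6 were at 0.4 or more in the young library, and all 6 involved *Mog*, *Mag* or *Opalin*. These are the same cells in both libraries.

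Among the genes whose second highest class was outside the oligodendrocyte lineage, *Mal* had the highest level there. *Mobp* followed, at 1.13 UMIs per 10,000 in old and 1.09 in young perivascular macrophage-like cells. *Mbp* was at 3.49 in the young ones, below only its precursor-like level outside the mature class, which rested mostly on cells 1 and 2. In endothelial-like cells, which line brain vessels, *Mal* had 249 UMIs in the old library and 217 in the young library, or levels of 4.88 and 4.73 (4.12 to 5.40). The promoter window of *Mal* held none of the letters searched, nor did those of *Mog* and *Ugt8a*, with 1 and 3 UMIs in young endothelial-like cells. A link of the letters to these levels was not tested. *Mal* was found in 68.2% of the young endothelial-like cells (59.4 to 76.1) at a median depth of 3237 UMIs, against 7.22% of microglia-like cells (4.81 to 10.3) at 7911. After thinning to 1000 UMIs the shares were 37.4% and 1.62%. In single endothelial-like cells the median was 1 UMI and the highest 14, and 54 of 129 cells had 2 or more. At a finer clustering *Mal* was at 4.94 and 4.62 in both endothelial-like clusters.

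The other genes did not accompany *Mal* there. In the young endothelial-like cells *Mal* was 59.3% of the UMIs of the 9 genes (54.1 to 64.4), against 25.8% in mature oligodendrocyte-like cells (25.2 to 26.4). *Mbp* had 88 UMIs, *Mobp* 27, *Cnp* 19, *Mag* and *Opalin* 4 each, *Ermn* and *Ugt8a* 3 each and *Mog* 1. The genes thus stood in another ratio to each other than in mature cells. Even so, *Mal* was 14.2-fold higher in mature cells (12.4 to 16.4).

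*Mag* was low in every other class. It had 93 UMIs in 374 young microglia-like cells, a level of 0.31 (0.253 to 0.384), and was found in 20.1% of them (16.1 to 24.5), 65 cells with 1 UMI and 10 with 2 or more. Neuroblast-like cells, at a similar median depth of 8473.5 UMIs, had it in 1.72% (0.0436 to 9.24), and the shallower astrocyte-like cells, at 1908, in 2% (0.737 to 4.30). By level astrocyte-like cells were at 0.23 (0.138 to 0.349), an interval that overlaps that of microglia-like cells. However, 1 astrocyte-like cell held 13 of the 20 UMIs of that class, and the interval does not cover this. Neuroblast-like cells were at 0.022, with 1 UMI, and endothelial-like cells at 0.087, with 4. Precursor-like cells were at 0.45, with 16 UMIs in 2 cells, and the 10 perivascular macrophage-like cells at 0.65, with 3 UMIs. After thinning to 1000 UMIs the share was 2.16% in microglia-like, 2.44% in endothelial-like and 1.54% in astrocyte-like cells. At that depth the shares rest on few cells and cannot tell these classes apart. The source of these UMIs was not tested.

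**Figure D3:**
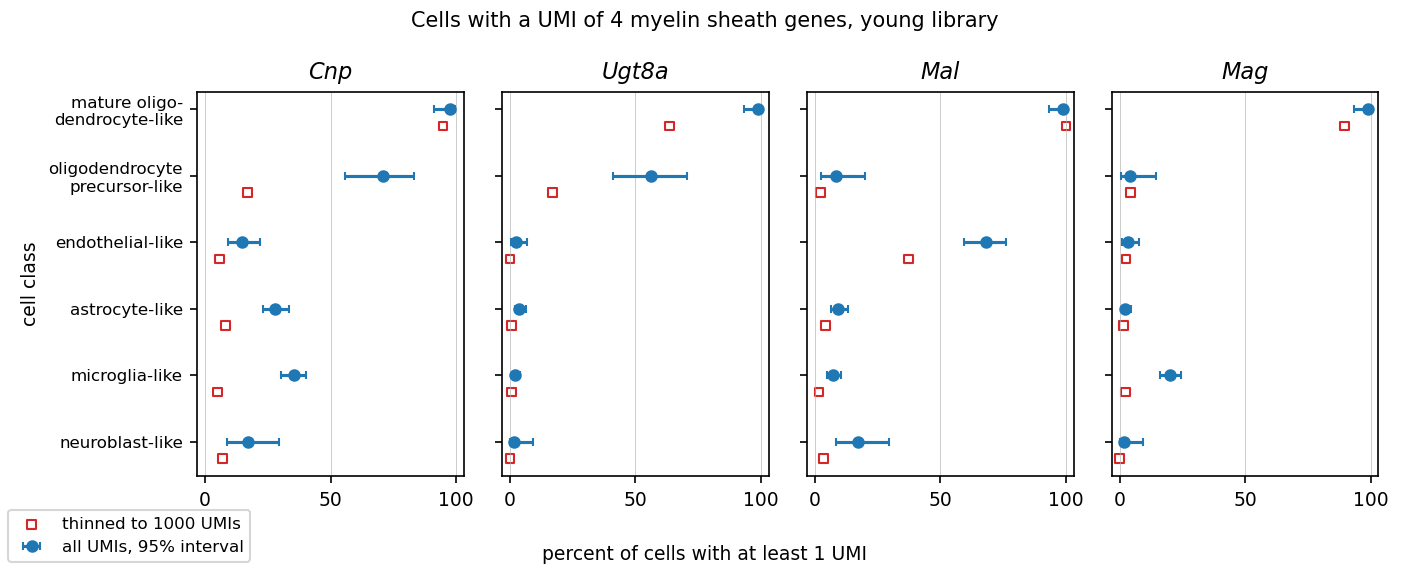
Percent of cells with at least 1 UMI (x axis) of Cnp, Ugt8a, Mal and Mag in 6 cell classes of the young library (y axis), with exact 95% intervals (circles) and after thinning the cells with at least 1000 UMIs to that number (squares). Cnp and Ugt8a reach into oligodendrocyte precursor-like cells (70.8% and 56.2%), Mal into endothelial-like cells (68.2%) and Mag is found in 20.1% of microglia-like cells, but in 2.16% after thinning.

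Outside the mature class the mix of the 9 genes shifted toward *Mbp*. *Mbp* made up 16.2% of their UMIs in mature oligodendrocyte-like cells (15.7 to 16.8), against 40.8% in all other brain cells (38.8 to 42.8), meaning every cell outside the low-mitochondrial clusters. *Cnp* made up 16.7% and 22.7%, but its share differed by class, with 29.1% in precursor-like, 27.1% in microglia-like, 14.3% in neuroblast-like and 5.19% in endothelial-like cells. *Ermn*, *Opalin* and *Mog*, the genes with the widest folds, had small shares there, which restates those folds. *Ermn* was at 7.72% in mature cells and 1.01% in the other brain cells, *Opalin* at 5.69% and 0.748%, and *Mog* at 6.20% and 1.63%. *Mag*, next by fold, was at 8.89% and 6.47%. *Mbp* was 36.4% of the 660 UMIs in microglia-like cells, 39.8% of the 440 in astrocyte-like cells and 58.3% of the 84 in neuroblast-like cells. Without the 4 cells high for newly formed markers its share in the other brain cells was 36.7%.

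**Figure D4:**
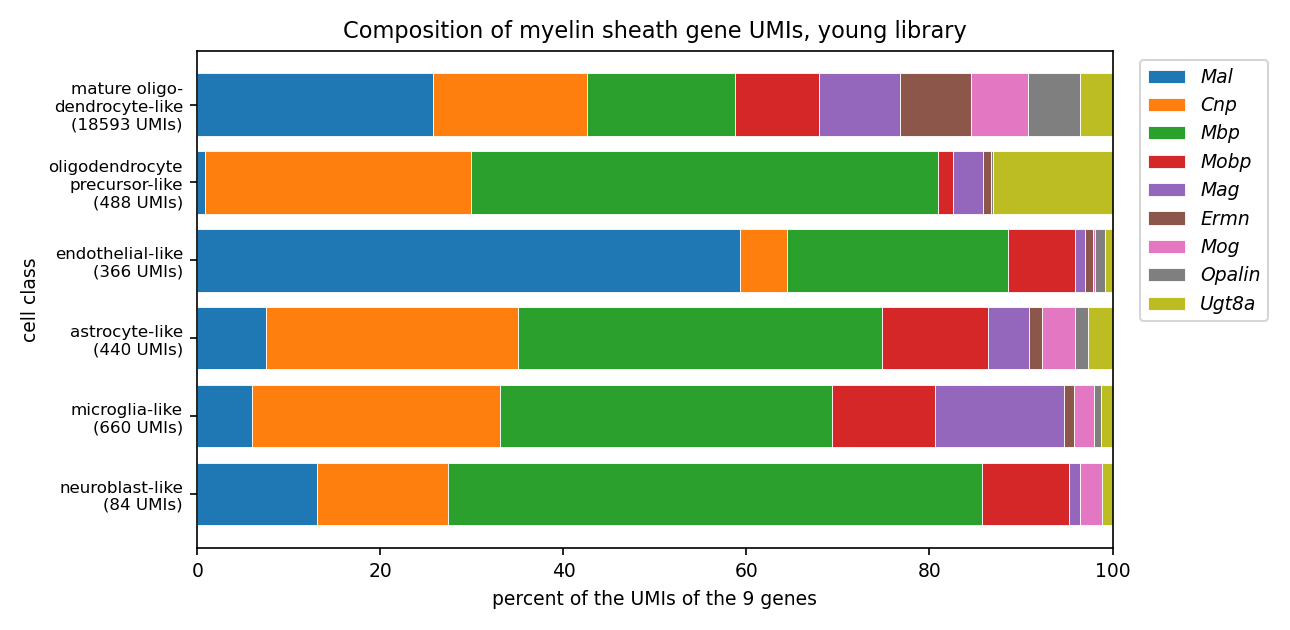
Share of each of the 9 genes in their summed UMIs (x axis, percent) for 6 cell classes of the young library (y axis, with the summed UMIs). Mbp covers 16.2% of the bar of mature oligodendrocyte-like cells and 24.0% to 58.3% of the others, and Mal 59.3% of that of endothelial-like cells.

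In the low-mitochondrial cells the genes were close to absent. Among the 1315 young cells of those clusters, at a median of 7235 UMIs, *Mbp* had 91 UMIs, a level of 0.093, in 6.39% of cells, and no other gene of the list was above 0.056.

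Between the libraries the mature cells gave nearly the same levels. Of the 9 genes 0 were at least 2-fold apart, where 0.238% of 6728 tested genes were. *Mal* was at 65.6 UMIs per 10,000 in the old and 67.3 in the young library, *Mbp* at 41.5 and 42.3, and *Cnp* at 41.3 and 43.7. All 9 were lower in the old library, with log2 ratios of old to young from -0.08 (*Cnp*) to -0.01 (*Mog*) and a median of -0.04, against a median of -0.003 over all tested genes. In endothelial-like cells 0 of 4 tested genes were 2-fold apart (0.187% of 6411 genes). Since 78 of the mature cells carried the same barcodes, the ratios do not compare mice.

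Other classes went the other way. In microglia-like cells 8 of the 9 genes were higher in the old library, with a median log2 ratio of 0.38 against -0.001 over all tested genes, and 0 were at least 2-fold apart with 0.1 added, where 0.171% of 9957 genes were. *Mbp* had 420 UMIs in old and 240 in young microglia-like cells, *Mobp* 141 and 74, *Ermn* 29 and 7, and *Mog*, the exception, 14 and 15. In astrocyte-like cells all 7 genes with at least 20 UMIs were higher in the old library, with a median log2 ratio of 0.40 against 0.003, and 0 were 2-fold apart (0.186% of 9123 genes).

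In precursor-like cells all 5 tested genes were higher in the old library, with a median log2 ratio of 0.22 against -0.0008, and 0 were 2-fold apart (0.373% of 6433 genes). Over the 43 barcodes that were precursor-like in both libraries *Mbp* was at 8.26 UMIs per 10,000 in the old and 8.28 in the young library. *Cnp* was at 4.51 and 4.50 there, and *Ugt8a* at 1.97 and 2.03, so these genes were nearly equal within the same barcodes. *Mag*, with 21 and 16 UMIs, and *Mobp*, with 13 and 6, stayed higher in the old library.

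In neuroblast-like cells all 4 tested genes were higher in the old library, and 1 of them, *Mobp*, with 23 and 8 UMIs, was at least 2-fold apart, where 0.390% of 6662 genes were. Over the 367 barcodes that were microglia-like in both libraries, *Mbp* had 420 UMIs in the old and 229 in the young library, levels of 1.30 and 0.79. In microglia-like cells the higher value of *Mbp* therefore appeared within the same barcodes. In the mature cells the microglia markers were at 3.21 UMIs per 10,000 in the old and 1.07 in the young library, the astrocyte markers at 3.88 and 2.79, and the precursor markers at 2.95 and 2.74. The part of free RNA in this was not tested.

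**Figure D5:**
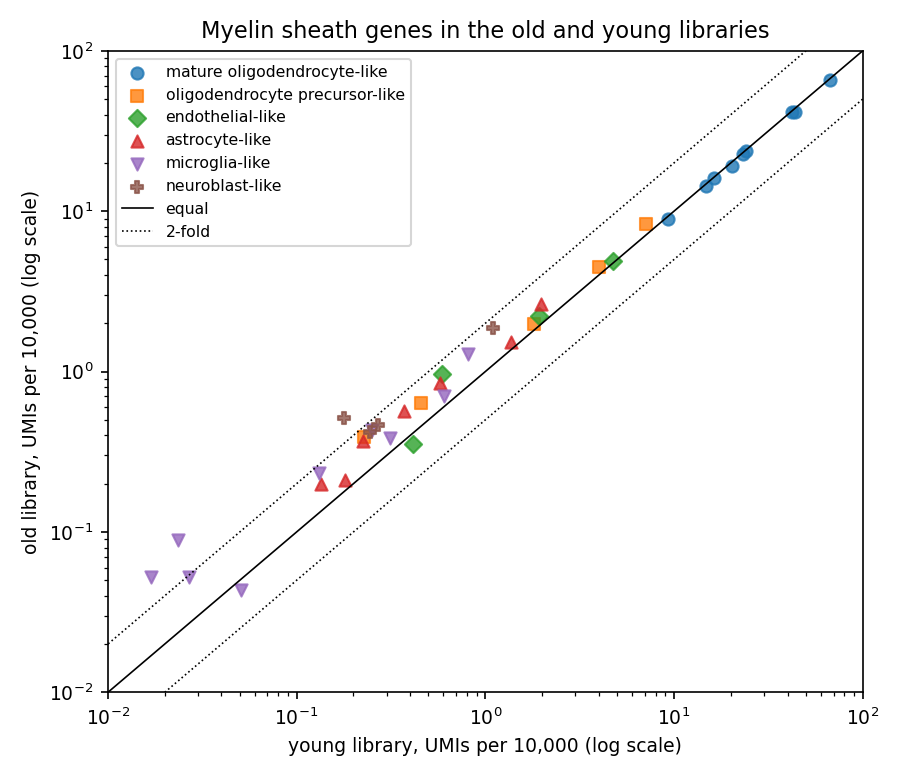
Level of the 9 genes in the old library (y axis) against the young library (x axis), both in UMIs per 10,000 on log scales with nothing added, in 6 cell classes (symbols), for pairs of a gene and a class with at least 20 UMIs over both libraries. Mature oligodendrocyte-like cells lie on the line of equal levels, and low values of microglia-like cells lie above it.

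Genes of the same pathway were read from lists that were not picked by their fold, though they were chosen with earlier results of these data known. Of 50 tested genes in 6 lists, 18 were at least 4-fold higher in mature oligodendrocyte-like cells than in the next class, against the 9 of 9 above and the same 1.34% of all genes. In the old library 16 passed, all among those 18, with *Myrf* at a fold of 3.92 and *Tppp* at 3.96 falling short. Of the 18, 12 had served as markers to name a class and 6 had not. Among other sheath proteins 3 of 6 passed the fold. Of these, *Cldn11*, for the claudin that seals the layers of the sheath, was 26.8-fold higher and *Tspan2*, for a tetraspanin, 12.5-fold. *Pllp*, *Gpm6b* and *Cd9* were at folds of 1.12, 1.78 and 0.74, being high in precursor-like cells or astrocyte-like cells too.

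Of 8 contact and channel genes of the sheath, paranode and node, 4 passed, among them *Hapln2* at 20.7, *Gjb1*, for a connexin of oligodendrocytes, at 15.7 and *Cntn2* at 10.1. Among 9 enzymes of sheath lipids, 2 passed, *Aspa*, whose enzyme releases acetate from N-acetylaspartate, at 27.1, and *Fa2h*, whose enzyme hydroxylates the fatty acids of galactosylceramide, at 6.14. The enzyme for the next step after *Ugt8a*, encoded by *Gal3st1*, which makes sulfatide, was at 1.94 UMIs per 10,000 in mature and 2.01 in precursor-like cells, a fold of 0.96. Of the lipid path, *Ugt8a* and *Gal3st1* were thus both present in precursor-like cells.

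Of 9 regulators only *Nkx6-2* (29.8) and *Myrf* (4.08), the transcription factor that myelin genes need, passed. *Olig2*, a lineage factor of precursors, was at 2.50 UMIs per 10,000 in mature and 12.5 in precursor-like cells, at least 4-fold lower. *Tcf7l2* passed the same limit, at 0.45 and 2.38, but without the newly formed cells, which it helped to pick, its precursor-like level was 0.95 and the call ended. Among 11 tested other oligodendrocyte genes 7 passed, led by *Ptgds* at 193 UMIs per 10,000 and a fold of 204, with *Apod* at 21.1, *Il33* at 16.6 and *Cryab* at 10.9. None of 7 early stage genes passed, and 5 of them, *Pdgfra*, *Cspg4*, *Vcan*, *Ptprz1* and *Gpr17*, were at least 4-fold lower in mature than in precursor-like cells. Of those 5, only *Ptprz1* had not served as a naming marker. Another early stage gene, *Enpp6*, passed at a fold of 4.07 without the 4 cells high for newly formed markers, which it helped to pick. Over all 50 genes the median fold above the next class was 1.65, against 20.3 for the 9 sheath genes and 0.44 for all tested genes.

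The genes whose pattern over the 9 classes was most like the sum of the 9 were sought among 8157 genes with at least 100 UMIs. Among the 10 highest by Pearson's r on log2 levels were *Secisbp2l* (0.96), *Tnfaip6* (0.96), *Dbndd2* (0.94), *Hhip* (0.94), *Gjb1* (0.94), *Arhgef10* (0.94), *Larp6* (0.94), *Enpp2* (0.93) and *Pcolce2* (0.93). *Enpp2*, which encodes autotaxin, was at 19.9 UMIs per 10,000 in mature cells. The 9 classes share 1 library, and r says nothing of function.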

How the data were processed

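The authors deposited 1 table with cells in rows and 17592 genes in columns, whose values are on a natural log scale, ln(1 + UMIs per 10,000 UMIs of the cell). The labels do not name this unit, and it was read from the values, which sum to 10000 in each cell after exponentiation and subtraction of 1. Per the submitters' processing notes, Cell Ranger 5.0.0 and mm10 were used. UMIs recovered from the table were whole within 0.01 for 100% of values, and all 3893 cells were kept. The gene list, the marker lists and the pathway lists were chosen with earlier results of these data known.

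Both libraries were clustered together with Scanpy 1.11.5 (2000 variable genes without the 9, 30 principal components, 15 neighbours, Leiden resolution 1, igraph 0.11.9, Python 3.11.15). A class name needed 3 markers with a UMI in 25% of cells and 4 times the level of other cells. Scrublet calls were kept. Folds add 0.1 to both levels and need 20 UMIs over both groups. The named genes were the 9, the pathway lists, and the 10 genes most like their sum, some of which are not reported here. Intervals are exact Poisson, Clopper-Pearson or conditional binomial. The fold count was tested on simulated counts. Gene models are from GENCODE M21 on GRCm38.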

Additional observations from a re-analysis of the deposited data

How the results depend on the processing

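No paired analysis was possible because each age has 1 library, so the ages were not tested against each other. The counts of 9 genes at least 4-fold higher, over the next class and over precursor-like cells, stayed within 1.5 times under all alternatives run (7 of 9 at 8-fold, 8 of 9 with 1 added to both levels, where *Ugt8a* was at 3.66). The summed level in mature cells, 261 UMIs per 10,000, was 268 with the 9 genes left out of the total, 251 as a mean over cells and 253 in the old library. The lowest share of mature cells with a UMI, 94.9%, was 63.6% after thinning to 1000 UMIs. Pairs of a gene and a class 2-fold apart between the libraries numbered 1 of 41, 0 as a mean over cells or with 1 added, 2 with no minimum of UMIs and 9 at 1.5-fold. The share of *Mbp* among the UMIs of the 9 genes in other brain cells, 40.8%, was 32.3% without the 47 cells above the lowest mature cell, and 36.7% without the 4 cells high for newly formed markers, an alternative chosen after seeing the data. The 18 pathway genes that passed were 16 in the old library and 19, with *Enpp6* added, without those 4 cells, both also chosen after seeing the data. Removing doublet calls, which include cells 1 and 2, gave *Mbp* 1.60 UMIs per 10,000 in precursor-like cells in place of 7.06. The cause of these shifts was not tested. Genes under about 0.1 UMIs per 10,000 rest on a few UMIs per class.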
